A study of Mus musculus with 9 samples.

Results

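Sap-1, encoded by Elk4, is one of the ternary complex factors, and the arrays described here compare fibroblasts that carry an shRNA against it with fibroblasts that carry the empty vector. All cells were NIH 3T3, an established line of mouse embryo fibroblasts, and they stably carried the empty pLKO.1 vector (control), a Sap-1 shRNA or an shRNA against the related factor Net. The comparison was made over 6 of the 9 arrays of the series, 3 biological replicates per group with 1 Affymetrix Mouse Gene 1.0 ST array each, and over all 19935 genes that had a probe set with a single gene symbol. The 3 Net shRNA arrays shared the fit, and their levels are given for some of the genes; a change printed without its Net shRNA level is not thereby particular to the Sap-1 shRNA. Every culture sat for 2 hours on plastic coated with fibronectin, was kept overnight without serum and then received bovine serum for 1 hour, at 10% in the sample protocols and 20% in the series text. No array was taken before serum, so all values are levels after serum, and protein was not measured. The labels do not say how many separately transduced lines each group held. If a group was a single line, the p-values measure the spread among cultures of that line, and an effect of the shRNA and a difference between lines cannot be told apart.

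Ternary complex factors carry an ETS domain and occupy DNA in company with serum response factor (SRF), which recognises a motif known as the CArG box, while the ETS domain contacts a GGAA core nearby. Mitogen-activated protein kinases phosphorylate them after growth factors reach the cell, and genes induced early by serum are their best known targets. In fibroblasts, receptors, matrix and secreted growth factors are the means by which the cells sense and shape their surroundings.

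Elk4 itself was at 11.03, 11.05 and 11.13 in the 3 control arrays and at 9.50, 9.54 and 9.55 in the 3 Sap-1 shRNA arrays, as log2 levels from robust multi-array averaging (RMA). The groups did not overlap, and the targeted mRNA was left at 34.5% of its control level (log2 difference -1.54, SE 0.04, limma adjusted p = 9.2e-10). In the Net shRNA cells it was at 10.63 ± 0.04 (SD, n = 3). Srf, which encodes the DNA-binding partner, was at 12.02, 12.06 and 12.15 in control and at 11.85 to 11.92 in Sap-1 shRNA cells, a log2 difference of -0.19 (SE 0.05, limma adjusted p = 0.0085). Elk3, the gene of Net, fell by 0.12 (limma adjusted p = 0.023), which did not pass after median centring or without control replicate 2 or 3 or Sap-1 shRNA replicate 1. Elk1, the third family member, lay at -0.08 (SE 0.05, limma adjusted p = 0.27). In the Net shRNA cells, Elk3 was at 11.08 ± 0.02 against 11.51 in control (log2 difference -0.42, limma adjusted p = 1.1e-05). Elk4 was lower than control there by a like amount (-0.44, limma adjusted p = 2.3e-05). The Net shRNA levels given below thus come from cells in which both mRNAs were lower.

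With limma and an adjusted p under 0.05, 3149 genes were higher in Sap-1 shRNA cells (15.8% of those tested) and 2772 were lower (13.9%). At least 1.5-fold was reached by 462 higher genes (2.32%) and 428 lower genes (2.15%), at least 4-fold by 30 and 39, and at least 8-fold by 9 and 8. For 8165 genes (41.0%) all Sap-1 shRNA arrays lay on the same side of all control arrays. Against Net shRNA, 5480 genes (27.5%) were called in either direction. Bright genes were called more often: among the 9967 genes above the median level, 26.9% were higher and 22.3% lower. The correlation between arrays across genes was 0.9985 to 0.9992 within a group and 0.9879 to 0.9908 between groups. The gene lists used below hold members by function, and their counts are read against these shares. Lists differ in brightness, so counts among members above the median level are given for many of them as well, to be read against 26.9% and 22.3%.

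**Figure D1:**
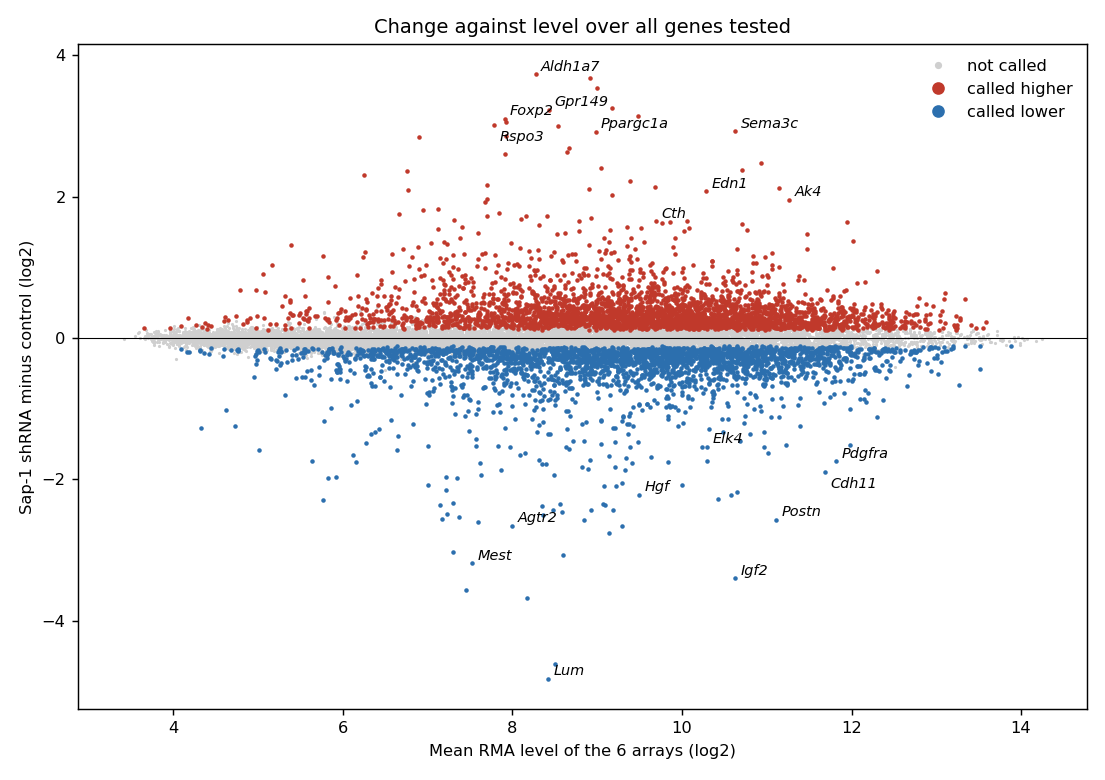
Difference between Sap-1 shRNA and control (log2, vertical axis) against the mean RMA level of the 6 arrays (log2, horizontal axis), 1 point per gene, for all 19935 genes. Red and blue points were called higher and lower by limma, and named genes include Lum, which had the largest fall, and Elk4 itself at -1.54.

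Many of the largest changes ran between a level near the low end of the array's scale and one well above it, though Postn, Sema3c and Igf2, described further on, were above the median of all genes in both groups. Aldh1a7, which belongs to the aldehyde dehydrogenases and is uncertain because a near copy exists, was at 6.25, 6.46 and 6.52 in control and at 10.10, 10.12 and 10.20 in Sap-1 shRNA cells (13.3-fold, limma adjusted p = 1e-10). Lum, the gene of lumican, which binds collagen fibrils, went the other way, from 10.71, 10.79 and 10.98 to 5.64, 6.39 and 6.01 (3.54% of control). Arrays of the groups lay far apart for both genes, and the Sap-1 shRNA arrays spread more for Lum (SD 0.38) than the control arrays (SD 0.14). Lum in Net shRNA cells was at 10.52 ± 0.10 (SD, n = 3), close to control. Further down the order of falls came Rgs4, a gene of a regulator that switches off heterotrimeric G proteins (8.90 ± 0.13 to 6.29 ± 0.02), Naaa, of an amidase that degrades N-acylethanolamines (10.13 ± 0.10 to 7.55 ± 0.14) and Brinp3 (8.45 ± 0.07 to 5.88 ± 0.27). Among the rises were Usp17la, a deubiquitinase gene, uncertain because its family holds near copies (2.85), Ostn, which encodes the secreted peptide osteocrin (5.48 ± 0.13 to 8.32 ± 0.21), and Cd80, the gene of a T cell costimulator (7.33 ± 0.27 to 9.96 ± 0.07). The deposited table has no detection calls, so a level near 6 was not called absent.

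**Figure D2:**
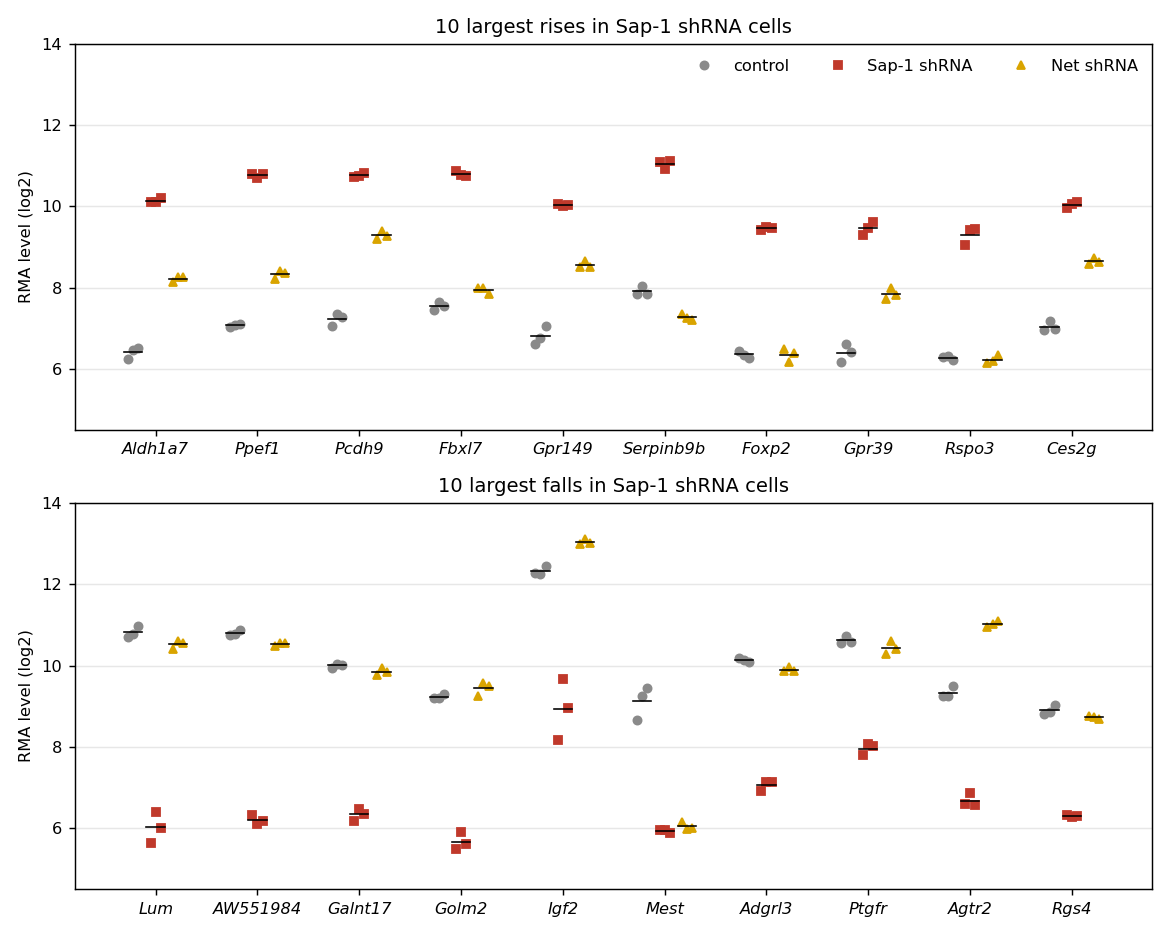
RMA levels (log2) in each of the 3 control, 3 Sap-1 shRNA and 3 Net shRNA arrays for the 10 named genes with the largest rise and the 10 with the largest fall. Symbols are arrays and black bars are group means; the Sap-1 shRNA arrays stand apart from control for every gene drawn, as the choice of genes required, while the Net shRNA arrays of Lum lie near control and those of Mest near Sap-1 shRNA.

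Among receptors that couple to G proteins, large changes went both ways while most members were not called. Of 331 measured, 22 were higher (6.65%) and 43 lower (13.0%), against 15.8% and 13.9% of all genes; of the 69 members above the median level, 12 were higher and 28 lower. Agtr2, the type 2 angiotensin II receptor gene, was at 9.24, 9.24 and 9.49 in control and at 6.58, 6.87 and 6.56 in Sap-1 shRNA cells, a fall of 6.29-fold (limma adjusted p = 4.5e-09). No array of one group reached the other, and in Net shRNA cells Agtr2 was above control, at 11.03 ± 0.08 (SD, n = 3). Ptgfr, the receptor gene for prostaglandin F2 alpha, was at 10.56, 10.72 and 10.59 and at 7.79, 8.07 and 8.01 in the same order, so it too was separated (log2 difference -2.67, SE 0.09). The adhesion receptor genes Adgrl3, a latrophilin, and Adgrg6 had log2 differences of -3.07 and -2.50. Gpr149, an orphan receptor gene, was at 6.62, 6.76 and 7.06 in control and at 10.07, 10.01 and 10.04 in Sap-1 shRNA cells (9.35-fold, limma adjusted p = 1.1e-09). Gpr39, whose product responds to zinc, was at 6.16, 6.60 and 6.41 and at 9.30, 9.46 and 9.61 (8.35-fold). Both were high in all Sap-1 shRNA arrays, with Net shRNA means between the groups at 8.55 and 7.85. The neuropeptide Y receptor gene Npy1r rose from 5.73 ± 0.04 to 7.81 ± 0.10, and Fzd6, a Frizzled receptor for Wnt proteins, by 0.92 (SE 0.06).

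Receptor tyrosine kinases fell more often than they rose. Of 56 measured, 15 were lower (26.8%) and 8 higher (14.3%), and above the median level 13 and 7 of 30. Pdgfra, a receptor gene for platelet-derived growth factors and a marker of fibroblasts, was at 12.71, 12.68 and 12.68 in control and at 10.84, 10.96 and 11.03 in Sap-1 shRNA cells. The groups did not overlap, and 29.9% of the control level was left (log2 difference -1.74, SE 0.06, limma adjusted p = 4.2e-09); Net shRNA cells were at 12.43 ± 0.10 (SD, n = 3). Its relative Pdgfrb was at 12.21 and 12.19 (limma adjusted p = 0.77). The fibroblast growth factor receptor gene Fgfr1 was at 12.80, 12.80 and 12.84 and at 11.91, 11.98 and 11.94, 54.7% of control. Mertk, a receptor gene for the engulfment of dead cells, was at 9.49 to 9.67 and at 8.11 to 8.13, and fell by 1.45 (SE 0.05). Both groups were tight for these 2 genes and well separated. Epha7, an ephrin receptor gene, rose from 7.31, 7.37 and 7.28 to 9.98, 9.98 and 10.08 (6.46-fold), and it was also high in Net shRNA cells, at 10.33 ± 0.09. Ror1, a co-receptor gene for Wnt5a, rose by 0.65 and Epha2 by 0.43, while Ptk7, of Wnt planar polarity signalling, fell by 0.73.

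Receptors for cytokines and for the tumour necrosis factor (TNF) and transforming growth factor beta families were lower in 29 of 106 cases (27.4%) and higher in 10 (9.43%). Of the 49 above the median level, 22 were lower and 9 higher. Il1rl2, the interleukin-36 receptor gene, was at 10.08, 10.06 and 10.25 in control and at 7.94, 8.07 and 8.11 in Sap-1 shRNA cells (4.26-fold lower, limma adjusted p = 3.1e-09). Il17rd, a receptor-like gene that dampens fibroblast growth factor signals, fell by 1.36 (SE 0.07) and Il13ra1, of the interleukin-13 receptor, by 1.1 (SE 0.06). The Toll-like receptor genes Tlr2 and Tlr4, sensors of bacterial lipoprotein and lipopolysaccharide, went opposite ways. Tlr2 fell from 8.88 in all 3 control arrays to 7.90, 8.18 and 7.98, and Tlr4 rose from 9.25, 9.41 and 9.36 to 10.15, 10.13 and 10.26. Eda2r, the ectodysplasin A2 receptor gene, rose by 1.69 (SE 0.09), and the activin receptor gene Acvr2a by 0.91 (SE 0.06), to 9.52, with Net shRNA cells at 9.45.

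**Figure D3:**
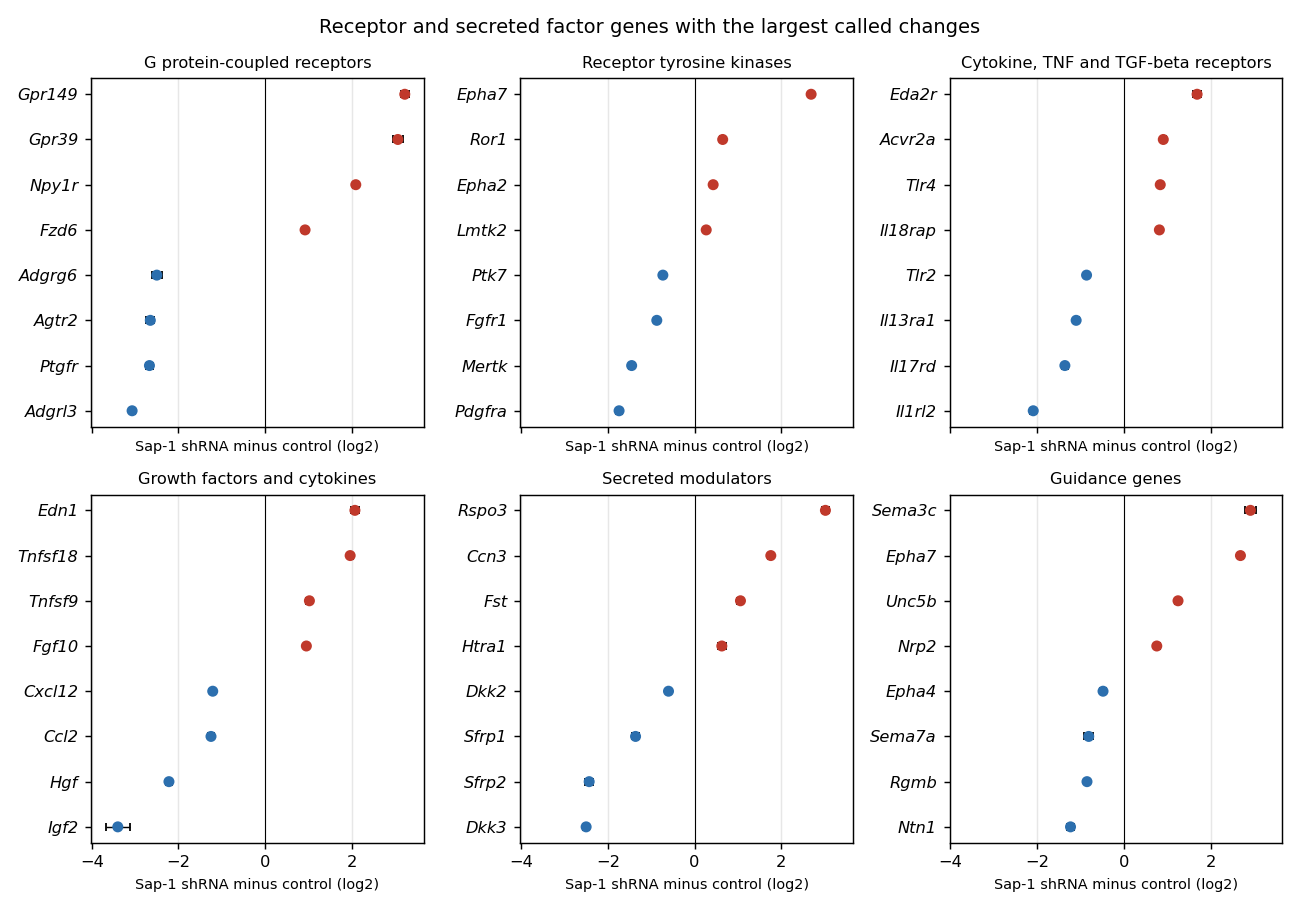
Log2 difference between Sap-1 shRNA and control (horizontal axis) for up to 4 called genes per direction with the largest change in each of 6 lists, with bars of 1 SE from the fit; bars shorter than the symbol are hidden. Igf2 has the widest bar (SE 0.27), and Epha7 belongs to both receptor tyrosine kinases and guidance genes.

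Secreted growth factors, cytokines and hormones had 41 of 244 members lower (16.8%) and 20 higher (8.20%), and above the median level 25 and 17 of 76. Igf2, the insulin-like growth factor 2 gene, was at 12.29, 12.25 and 12.45 in control and at 8.16, 9.68 and 8.96 in Sap-1 shRNA cells. Each Sap-1 shRNA array was lower than every control array, but they spread widely (SD 0.76) around a mean of 9.49% of control (limma adjusted p = 3.7e-06), and Net shRNA cells were at 13.05 ± 0.07. Hgf, the hepatocyte growth factor gene, fell from 10.50, 10.64 and 10.66 to 8.23, 8.36 and 8.56 (4.65-fold). The chemokine genes Ccl2, which draws monocytes, and Cxcl12, the ligand of CXCR4, fell by 1.25 and 1.21, and both were above control in Net shRNA cells, by 0.83 and 0.26. In the other direction, Edn1, the gene of the vasoconstrictor endothelin-1, rose from 9.19, 9.45 and 9.10 to 11.16, 11.31 and 11.49 (4.21-fold, limma adjusted p = 3.9e-08). No Sap-1 shRNA array was as low as any control array there. Fgf10, a growth factor that mesenchyme sends to epithelium, rose by 0.95 (SE 0.06), and the TNF family ligand genes Tnfsf18 and Tnfsf9, of T cell costimulation, by 1.96 and 1.02. Tnfsf18 was as high in Net shRNA cells, at 8.82 against 8.69 in Sap-1 shRNA and 6.72 in control cells (difference between the knockdowns -0.14, limma adjusted p = 0.097).

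Secreted proteins that tune Wnt and bone morphogenetic protein signals went the other way in number, with 16 of 65 higher (24.6%) and 9 lower (13.8%), the latter near the background of 13.9%. Of the 28 above the median level, 12 were higher and 8 lower. At 1.5-fold or more, 6 were higher and 6 lower, and the list median was -0.02, as for all genes. Rspo3, an R-spondin that amplifies Wnt signals, was at 6.29, 6.32 and 6.22 in control and at 9.04, 9.41 and 9.44 in Sap-1 shRNA cells (8.09-fold, limma adjusted p = 2.2e-09). Sfrp2, Dkk3 and Sfrp1, of secreted Wnt inhibitor families, had the largest falls of the list: Sfrp2 went from 10.28, 10.40 and 10.51 to 7.76, 8.17 and 7.97 (18.6% of control), Dkk3 from 9.60 ± 0.10 to 7.11 ± 0.13, and Sfrp1 from 11.49 ± 0.05 to 10.13 ± 0.11. The groups did not overlap for any of these genes. In Net shRNA cells Rspo3 was at 6.23, near control, and Sfrp2 was at 12.29 and Sfrp1 at 12.32, both above control. The activin antagonist gene Fst rose by 1.06 (SE 0.07) and Ccn3, of the CCN matrix signalling proteins, by 1.76 (SE 0.06). Inside the cell, the core genes of the Notch, Hedgehog and Wnt pathways were lower in 25 of 70 cases (35.7%) and higher in 6 (8.57%), and above the median level lower in 23 of 46. Dact1, an intracellular antagonist of Wnt signals, fell from 10.22, 10.32 and 10.27 to 7.95, 7.94 and 7.84 (19.4% of control). Tcf7l1, a DNA-binding Wnt effector, fell by 0.96 and the Notch ligand gene Jag1 by 0.76, whereas the Hedgehog receptor gene Ptch1 rose by 0.63 and the Notch target Hes1 by 0.52.

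Genes that guide migrating cells and axons had 20 of 90 members lower (22.2%) and 16 higher (17.8%), and above the median level 18 and 14 of 50. Sema3c, a secreted class 3 semaphorin, was at 8.98, 9.06 and 9.45 in control and at 12.01, 12.06 and 12.19 in Sap-1 shRNA cells (7.58-fold, limma adjusted p = 1.3e-08). It was lower than control in Net shRNA cells, at 7.76 ± 0.16, so the knockdowns differed by 4.33 (SE 0.12, limma adjusted p = 4.7e-10). The semaphorin co-receptor gene Nrp2 rose by 0.76 and the netrin receptor gene Unc5b by 1.25, while Ntn1, a netrin, fell by 1.23.

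Cell-cell adhesion genes were lower in 35 of 179 cases (19.6%) and higher in 17 (9.50%). This list is dim, and of its 50 members above the median level 23 were lower and 10 higher. Cdh11, the cadherin typical of fibroblasts and bone-forming cells, was at 12.66, 12.62 and 12.62 in control and at 10.59, 10.83 and 10.81 in Sap-1 shRNA cells (27.0% of control, limma adjusted p = 2.5e-09), with Net shRNA cells at 12.74. Pcdh9, a protocadherin, went from 7.05, 7.34 and 7.28 to 10.73, 10.75 and 10.81 (11.6-fold). The pair shows that both directions occurred within the cadherin superfamily, since Pcdh7 fell by 1.93 (to 7.52, with Net shRNA cells at 7.99) and Pcdh17 and Cdh19 rose by 1.25 and 1.06.

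Matrix genes fell more often than the background, with 43 of 160 lower (26.9%) and 20 higher (12.5%), and above the median level 38 and 18 of 94. Beside Lum, the gene of the matricellular protein periostin, Postn, fell from 12.38, 12.38 and 12.45 to 9.72, 9.84 and 9.92 (16.8% of control), and Col12a1, a fibril-associated collagen, from 11.04 ± 0.08 to 8.96 ± 0.17. Genes of other matrix proteins rose, among them Srpx2 (1.65, to 10.88, with Net shRNA cells higher still at 11.88), the heparan sulphate proteoglycan gene Gpc1 (1.03), and Tnc, of tenascin-C (0.99, SE 0.07). Col1a2 and Fn1, of a fibrillar collagen and fibronectin, were at -0.03 and -0.10 (limma adjusted p = 0.62 and 0.11). Enzymes that modify collagen and sugar chains were lower in 48 of 179 cases (26.8%) and higher in 29 (16.2%), and above the median level 42 and 20 of 100. Plod2, the lysyl hydroxylase of collagen cross-links, rose from 9.04 ± 0.17 to 10.67 ± 0.04, P4ha2, a collagen prolyl hydroxylase, rose by 0.84, and P3h2, a prolyl 3-hydroxylase, fell by 1.43, from 8.29 to 6.86, while Net shRNA cells were at 10.11. Galnt17, of the family that starts O-linked sugar chains, fell by 3.67 and Galnt7 rose by 1.12. Fut11 had called probe sets in opposite directions and is not described further.

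Of 317 genes of proteases and their inhibitors, 40 were higher (12.6%) and 42 lower (13.2%), but the list is dim. Of the 84 members above the median level, 34 were lower and 24 higher, against 22.3% and 26.9% of all such genes. Ctsk, cathepsin K, a collagen-degrading protease, was at 8.55, 8.69 and 8.66 in control and at 6.07, 6.08 and 6.16 in Sap-1 shRNA cells (17.3% of control, limma adjusted p = 1.3e-10). Adam23, whose product binds integrins, fell from 11.56 ± 0.06 to 9.29 ± 0.09, and the metalloproteinase gene Adamts9 and the aminopeptidase gene Anpep fell by 1.82 and 1.78, Anpep to 7.5 with Net shRNA cells at 7.93. Serpinb1a, an inhibitor of neutrophil proteases, rose from 6.62 ± 0.17 to 9.22 ± 0.06, and Mmp16, a membrane-bound metalloproteinase, by 1.19.

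Ion channel and connexin genes were higher in 32 of 328 cases (9.76%) and lower in 29 (8.84%), and with the median of neighbouring genes taken off 49 were lower; of the 74 above the median level, 23 were higher and 20 lower. Gria1, a glutamate receptor channel gene, fell from 9.81, 9.82 and 9.83 to 7.19, 7.40 and 7.46 (5.53-fold, limma adjusted p = 1.1e-09), and Scn7a, a sodium channel gene, by 1.75. Fxyd5, a small partner of the sodium pump, rose from 9.52 ± 0.16 to 11.89 ± 0.05, while the sodium pump subunit gene Atp1b1 fell from 11.74 ± 0.04 to 9.56 ± 0.10; the latter was equally low in Net shRNA cells, at 9.54. The water channel gene Aqp1 rose by 1.52 (SE 0.07). Of 378 solute carriers, 59 were higher (15.6%) and 44 lower (11.6%), and above the median level 52 and 37 of 168. Slc6a15, a carrier of neutral amino acids, rose from 7.09, 7.39 and 7.39 to 8.95, 9.03 and 9.08 (3.32-fold). The fructose carrier gene Slc2a5, the nucleoside carrier gene Slc29a1 and the mitochondrial pyrimidine nucleotide carrier gene Slc25a33 rose by 1.35, 1.29 and 1.19, and the glutamate carrier gene Slc1a3 fell by 1.2. ABC transporters and ATPase pumps were higher in 17 of 86 cases (19.8%) and lower in 8, or 15 with the neighbours' median taken off, and above the median level 12 and 7 of 36.

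Several lists of metabolic genes had more members higher than lower, with many members not called. Aminoacyl-tRNA synthetases, which load tRNAs with amino acids, were higher in 23 of 35 cases (65.7%), with a list median of 0.21 against -0.02 for all genes; 22 of the 34 above the median level were among them. Wars, the tryptophanyl enzyme, rose from 10.55, 10.56 and 10.64 to 11.43, 11.40 and 11.50 (1.82-fold, limma adjusted p = 1.2e-07), and the mitochondrial tyrosyl enzyme gene Yars2 by 0.68 (SE 0.05). Iars2 alone was lower (-0.22), which turned to 0.07 with the neighbours' median taken off; without Sap-1 shRNA replicate 3, 3 members were lower and without control replicate 2, 2 were. Purine and pyrimidine synthesis genes were higher in 29 of 57 cases (50.9%) and lower in 4 (7.02%), with a median of 0.19, and above the median level 28 and 4 of 50. Ak4, a mitochondrial adenylate kinase gene, was at 10.16, 10.23 and 10.47 in control and at 12.21, 12.24 and 12.28 in Sap-1 shRNA cells (3.88-fold, limma adjusted p = 5.6e-09). No array of one group came near the other. Ampd3, an AMP deaminase gene, and Prps2, of phosphoribosyl pyrophosphate synthesis, rose by 0.86 and 0.78.

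Amino acid and one-carbon genes were higher in 27 of 65 cases (41.5%) and lower in 5 (7.69%), the latter 2 without Sap-1 shRNA replicate 2 or 3 and 3 without Sap-1 shRNA replicate 1 or control replicate 3. Above the median level they were 27 and 4 of 48. Cth, the enzyme that makes cysteine from cystathionine, rose from 8.81, 8.83 and 8.97 to 10.58, 10.52 and 10.47 (3.14-fold, limma adjusted p = 2.9e-09), whereas in Net shRNA cells it was at 8.81 ± 0.05 (SD, n = 3). Cdo1, which oxidises cysteine, fell by 1.62 (SE 0.08). The folate enzyme genes Mthfd1l and Mthfd1 rose by 0.79 and 0.76, and the alanine transaminase gene Gpt2 by 0.67. Tricarboxylic acid cycle and pyruvate genes were higher in 21 of 43 cases (48.8%; 14 without control replicate 1) and lower in 5, or 3 without control replicate 2 or 3; all of these were among the 39 above the median level. Pdk1, a kinase that inactivates pyruvate dehydrogenase, rose by 0.86 and its opposing phosphatase gene Pdp1 fell by 0.62, while Idh3a and Ogdh, of the cycle itself, rose by 0.63 and 0.51. Glycogen and sugar phosphate genes split 16 higher and 14 lower of 49 (32.7% and 28.6%), and above the median level 16 and 13 of 39. The glycogen branching enzyme gene Gbe1 rose from 8.73 ± 0.17 to 10.29 ± 0.03 and Pgm1, of glucose phosphate exchange, by 0.98.

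Ppargc1a, the gene of a transcriptional coactivator of mitochondrial genes, was at 7.38, 7.58 and 7.61 in control and at 10.37, 10.46 and 10.49 in Sap-1 shRNA cells (7.54-fold, limma adjusted p = 1e-10). The groups were far apart, with Net shRNA cells between them at 8.55. Lipid genes were higher in 36 of 129 cases (27.9%) and lower in 23 (17.8%), and above the median level 32 and 20 of 93. The lipid droplet gene Plin2 rose by 0.83, and the acyltransferase gene Agpat2 and the lipid phosphatase gene Plpp3 fell by 1.53 and 1.51, the latter from 12.69, 12.75 and 12.79 to 11.20, 11.26 and 11.22. Sphingolipid genes split evenly, with 9 of 42 (21.4%) each way, and above the median level 8 higher and 9 lower of 31. Detoxifying and redox enzymes, a list that also holds carbonic anhydrases, were higher in 51 of 280 cases (18.2%) and lower in 32 (11.4%), the latter 19 without Sap-1 shRNA replicate 2. That list is dim, and of its 82 members above the median level 34 were higher and 21 lower. Ces2g, a carboxylesterase gene with close copies and uncertain, rose from 7.03 ± 0.12 to 10.03 ± 0.07 and the carbonic anhydrase gene Car6 from 9.69 ± 0.02 to 12.17 ± 0.05, with Net shRNA cells below control at 8.03. The microsomal glutathione transferase gene Mgst1 fell from 10.14 ± 0.05 to 7.71 ± 0.07.

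Proteasome subunits rose in 22 of 51 cases (43.1%), with a median of 0.09 and none at 1.5-fold, 26 were not called, and 3 fell, which was 0 or 1 in most fits with an array left out (0 without control replicate 3; 1 without control replicate 1 or 2 or Sap-1 shRNA replicate 2 or 3). DNA repair genes rose in 39 of 98 cases (39.8%) with a median of 0.14 (4 of them at least 1.5-fold), 52 were not called, and 7 fell, or 4 without Sap-1 shRNA replicate 1; Polk, a translesion polymerase gene, rose by 0.73 and Brca2, of recombination repair, by 0.68. Lysosome genes were 21 higher and 18 lower of 84, and above the median level 21 and 17 of 68. Kinesins, dyneins and tubulins were higher in 18 of 110 cases (16.4%), near the background, and lower in 11 (7 without control replicate 3, 6 without Sap-1 shRNA replicate 2), with Kif26b at -1.77 (log2, SE 0.06, limma adjusted p = 5.2e-09). Above the median level, 16 of 64 members of that list were higher and 10 lower.

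**Figure D4:**
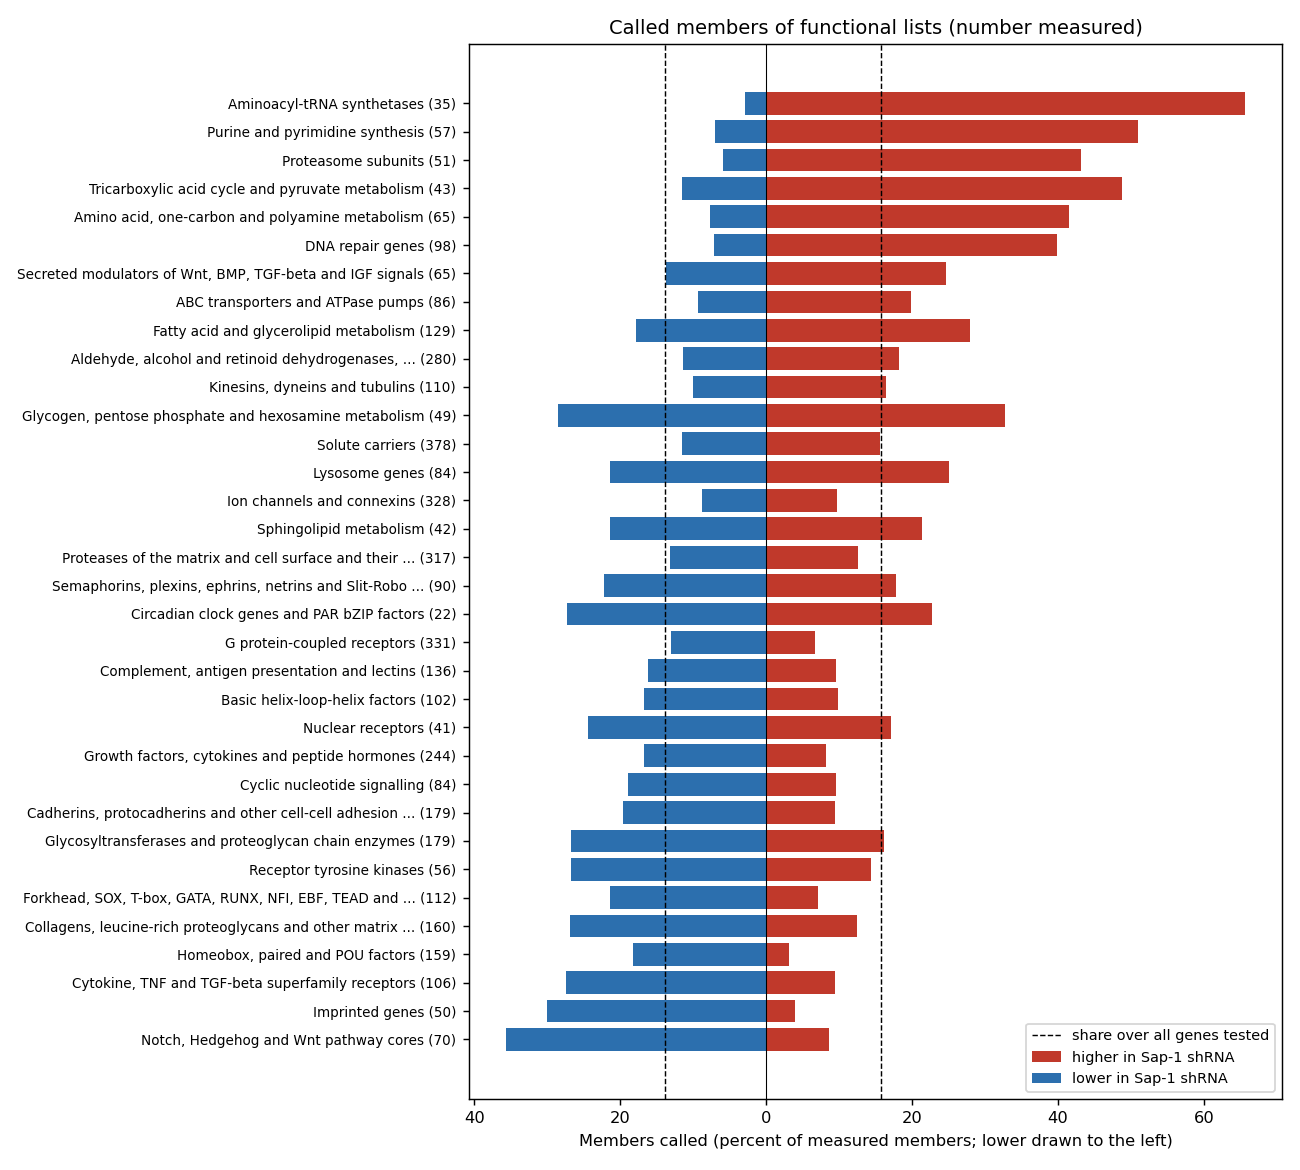
Share of the measured members of each of 34 functional lists called higher (red, to the right) and lower (blue, to the left) in Sap-1 shRNA cells, in percent, with the number measured in brackets; dashed lines mark the shares over all genes, 15.8% and 13.9%. Aminoacyl-tRNA synthetases reach 65.7% higher, and Notch, Hedgehog and Wnt genes 35.7% lower.

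Developmental transcription factors fell more often than they rose. Homeobox, paired and POU genes were lower in 29 of 159 cases (18.2%) and higher in 5 (3.14%), the latter 3 without Sap-1 shRNA replicate 1 or 2, and of the 66 above the median level 23 were lower. Pknox2, a TALE homeobox gene, fell from 8.48, 8.64 and 8.64 to 6.96, 7.13 and 7.10 (34.7% of control), while it was at 9.33 in Net shRNA cells. Dlx1, Lhx9 and Hoxc5 fell by 0.68, 0.68 and 0.77, with Dlx1 at 9.02 in both Sap-1 and Net shRNA cells, and Cux1 rose by 0.78. The list of forkhead, SOX, T-box, EBF and related genes had 24 of 112 lower (21.4%) and 8 higher (7.14%), and all 24 lower members were above the median level. Foxp2, a forkhead repressor gene, was at 6.45, 6.35 and 6.27 in control and at 9.41, 9.49 and 9.47 in Sap-1 shRNA cells (8.57-fold, limma adjusted p = 3.9e-10), and at 6.34 ± 0.16 in Net shRNA cells. Ebf3 and Ebf1, early B cell factor genes expressed in mesenchyme, fell by 1.14 and 0.78, and the T-box genes Tbx3 and Tbx15 by 0.74 and 0.68. Foxf1, a forkhead gene of mesenchyme, and Tead4, a DNA-binding partner of YAP, rose by 0.73 and 0.55.

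Basic helix-loop-helix genes were lower in 17 of 102 cases (16.7%), or 26 with the neighbours' median taken off, and higher in 10 (9.80%). Of the 46 above the median level, 16 were lower and 8 higher. Mycn, of the MYC family, fell from 8.52, 8.46 and 8.67 to 7.55, 7.18 and 7.10 (limma adjusted p = 2.8e-06), and Tfec, related to MITF, rose from 6.08 ± 0.04 to 7.33 ± 0.08. Nuclear receptors were 10 lower (24.4%) and 7 higher (17.1%) of 41. Nr2f1 (COUP-TFI) at -1.0 and the mineralocorticoid receptor gene Nr3c2 at -0.80 were among the falls. The thyroid hormone receptor gene Thrb at 0.59 was among the rises, though not the largest of them. At least 1.5-fold was reached by 4 higher and 2 lower nuclear receptors. Above the median level, 8 of 22 were lower and 6 higher. Clock genes were 6 lower (27.3%) and 5 higher (22.7%) of 22, the latter 3 without control replicate 1 or Sap-1 shRNA replicate 2. Hlf, a clock output factor gene, fell from 9.75, 9.75 and 9.83 to 8.07, 8.03 and 8.07, and Per1 and Per2, of the negative arm, by 0.46 and 0.54; Per2 was at 8.96 and in Net shRNA cells at 8.89. Ciart and Nr1d1, both clock repressor genes, rose by 1.12 and 0.64. Collection times within the day are not given in the labels.

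Cyclic nucleotide genes were lower in 16 of 84 cases and higher in 8, and 60 were not called. Above the median level, 12 of 38 were lower and 7 higher, against 22.3% and 26.9% of all such genes. Prkg1, the cyclic GMP-dependent kinase gene, was at -0.94. The natriuretic peptide clearance receptor gene Npr3 was at 1.25 and the protein kinase A subunit gene Prkar2b at 0.95. Complement, antigen presentation and lectin genes were 22 lower (16.2%) and 13 higher (9.56%) of 136, against 13.9% and 15.8% of all genes. Of the 30 above the median level, 9 were lower and 5 higher.

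Imprinted genes, expressed from 1 parental copy, were lower in 15 of 50 cases (30.0%), and 9 of these fell at least 1.5-fold; 2 were higher, Cd81 (0.19) and Commd1 (0.16), of which Commd1 lost its call without control replicate 1 or 2 or Sap-1 shRNA replicate 1 or 2 and with the neighbours' median taken off. Beside Igf2, the long noncoding RNA gene Meg3 fell from 11.81, 11.53 and 11.73 to 9.59, 9.59 and 9.25 (21.5% of control, limma adjusted p = 1.3e-07), Mest from 9.12 ± 0.41 to 5.93 ± 0.05 and Asb4 from 8.33 ± 0.09 to 6.35 ± 0.10. Their levels in Net shRNA cells were unlike each other: Meg3 was at 11.45, near control, Mest at 6.04, near Sap-1 shRNA, and Asb4 at 6.95.

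Since ternary complex factors act with SRF at CArG boxes that have a GGAA core (or TTCC on the other strand) nearby, promoters were searched for this pair. RefSeq promoters (GRCm38.p6, 250 bases before to 50 after the start) were found for 15561 of the genes. A CArG box stood in 1.63% of all 32851 promoters, in those of 1.80% of the lower genes and 1.19% of the higher genes. GGAA on either strand stood in 96.0% of promoters. A CArG box with GGAA within 20 bases was found in 0.691% of promoters, for 0.786% of lower, 0.517% of higher and 0.680% of genes not called. Counting only bases before the start, the shares were 0.555% of lower (12 genes), 0.477% of higher (12 genes) and 0.606% of genes not called, so the order of lower genes and those not called turned with the window. Of the 254 genes with a CArG box, 39 were lower (15.4%) and 30 higher (11.8%), against 13.9% and 15.8% of all genes tested. The lower share was near that background and the higher share was below it. Of the 15561 genes with a promoter, 2163 were lower and 2514 higher. The difference in shares was not tested. The 12 lower genes with this pair before the start include Srf itself, and the 4 with the largest fall are shown, 5′ to 3′ on the gene's strand, to let the arrangement be seen. Capitals mark the CArG box and the GGAA or TTCC cores within 20 bases of it.
Meg3 (chr12:109545279-109545338, + strand, log2 difference -2.22): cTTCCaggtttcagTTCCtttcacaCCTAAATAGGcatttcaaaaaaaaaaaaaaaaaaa
Lama2 (chr10:27616947-27617006, - strand, -1.55): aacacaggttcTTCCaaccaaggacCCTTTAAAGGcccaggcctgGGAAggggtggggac
Lmcd1 (chr6:112273518-112273577, + strand, -1.04): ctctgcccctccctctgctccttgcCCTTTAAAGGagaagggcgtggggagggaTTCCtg
Iah1 (chr12:21316147-21316206, + strand, -0.43): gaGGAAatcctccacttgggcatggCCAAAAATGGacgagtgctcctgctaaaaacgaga

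A match of letters is a description of the promoter, and binding was not measured. Lama2, of a laminin chain of basement membranes, was at 10.25, 10.09 and 10.15 in control and at 8.58, 8.58 and 8.70 in Sap-1 shRNA cells, and lower still in Net shRNA cells at 7.58 ± 0.15 (SD, n = 3). Lmcd1, of a LIM domain cofactor, was at 7.98, 8.01 and 7.99 and at 7.0, 6.92 and 6.95, but above control in Net shRNA cells at 8.71. Iah1, an ester hydrolase gene, was at 9.92 to 10.16 and at 9.50 to 9.68, and the groups did not overlap for any of the 4 genes.

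The cells' identity as fibroblasts was checked on markers. Of 14 fibroblast markers, 13 were above the median level, Fap being near the floor at 4.66 in control; 7 were lower in Sap-1 shRNA cells and none was higher. Beside Lum and Pdgfra, the decorin gene Dcn fell from 13.62, 13.59 and 13.58 to 12.90, 12.92 and 12.98, and Col3a1 by 0.34, while Vim was at 13.91 and 13.92 (limma adjusted p = 0.97). The Col1a1 call (-0.13) was lost without control replicate 1 or 3, Sap-1 shRNA replicate 1 or 2 or Net shRNA replicate 3, with the replicate block and after median centring. Their summed level, as log2 of the sum of unlogged values, was 16.57 to 16.59 in control and 16.29 to 16.32 in Sap-1 shRNA cells. Of 10 macrophage, 10 epithelial, 10 endothelial, 8 adipocyte, 8 skeletal muscle and 8 neuronal markers, 2, 1, 2, 1, 1 and 2 were higher and 1, 0, 1, 2, 1 and 1 lower. The largest rises among them were those of Lyz2 (6.04 to 7.85, uncertain because of a near copy), Emcn (5.73 to 6.62), Cdh5 (6.73 to 7.57), Map2 (8.56 to 9.32) and Lpl (8.94 to 9.62). Summed levels of macrophage markers were 10.15 to 10.18 in control and 10.28 to 10.34 in Sap-1 shRNA cells, and those of endothelial markers 10.16 to 10.23 and 10.30 to 10.33. Adipocyte markers summed to 10.20 to 10.26 and 10.48 to 10.50, and neuronal markers to 10.81 to 10.88 and 11.17 to 11.20. For these 4 lists the groups did not overlap, as was so for 41.0% of all genes taken singly. Such a sum weighs its brightest members most, and most members of each of these lists were not called. Lpl was the only adipocyte marker called higher and the only one above the median level. The ranges of both groups overlapped for epithelial (10.45 to 10.62 and 10.46 to 10.55) and skeletal muscle markers (10.50 to 10.58 and 10.56 to 10.65). The part of other cell types in the results was not tested. Several other markers lay near the low end in both groups. In control and Sap-1 shRNA cells Ptprc was at 6.12 and 6.04, Epcam at 6.35 and 6.34, Pecam1 at 6.44 and 6.40 and Adipoq at 5.09 and 5.03. Others were above the median of all genes, among them Acta1 (8.79 and 9.21, called higher) and Krt8 (8.3 and 8.21, not called). The falls included Cd68 (8.38 to 8.15), also above that median, and Pparg (6.55 to 6.3), whose call was lost in 4 settings. In RNA from whole cultures, fewer cells that express a gene and less RNA per cell cannot be told apart.

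Called genes were spread unevenly over the chromosomes. Of all genes above the median level, 26.9% were higher and 22.3% lower. Among genes above the median level, chromosomes 15, 4 and 16 had 42.6%, 41.5% and 39.9% higher and 11.1%, 10.5% and 10.8% lower. Chromosomes 3, 1 and 5 had 42.4%, 39.8% and 36.2% lower and 9.71%, 16.1% and 17.5% higher. In overlapping windows of 50 such genes in RefSeq order, the median difference ran from -0.34, on chromosome 1 between Kifap3 and Igsf8 with 40 lower and 1 higher, to 0.24, on chromosome 15 between Klf10 and Efr3a with 32 higher and 6 lower. A median of 0.2 or more either way was reached by 17 of 905 windows. Most of these were consecutive, overlapping windows on chromosome 1, from the one that starts at Acbd6 to the one that ends at Cd34. Their medians ran from -0.27 to -0.34, with 31 to 40 of the 50 genes lower in each. Elk4 is itself on chromosome 1, outside the window between Kifap3 and Igsf8, and fell by 1.44 with the median of its neighbours taken off. Whether the chromosomes of the lines differ was not tested.

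**Figure D5:**
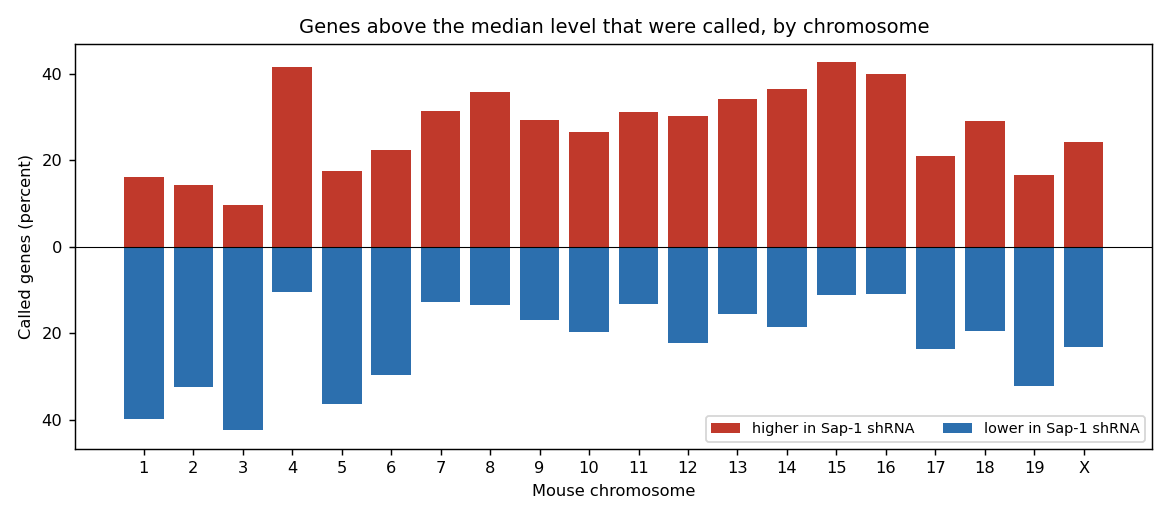
Percent of genes above the median level that were called higher (red, upward) or lower (blue, downward) in Sap-1 shRNA cells, for each mouse chromosome. Chromosomes 15 and 4 have the tallest upward bars and chromosomes 3 and 1 the longest downward bars.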

How the data were processed

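The deposited log2 levels were computed by the authors in Affymetrix Expression Console using RMA (from the submitters' processing notes, with version and settings not given in the sources used here). RMA makes arrays share a distribution and compresses small folds of dim genes. Of 28815 probe sets, 21780 had 1 symbol, 1605 several and 5430 none, and the probe set with the highest mean stood for each of 998 genes with more than 1. Arrays have no read depth, and their number limits the precision.

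limma 3.58.1 in R 4.3.3 (lmFit, eBayes) was fitted over 9 arrays with a mean per group, with Benjamini-Hochberg adjustment over 19935 genes. SE is that of the fit. On simulated data with no change elsewhere, 6%, 66% and 100% of genes changed 1.1-fold, 1.2-fold and 1.5-fold were called, with 5 false calls. Far fewer genes were changed there than were called in the arrays. The adjustment was therefore stricter, and these shares do not give the recovery in the real comparison.

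The members, the 35 lists and the markers were chosen with earlier results of these data known; 1 list is not reported here. Named were Elk1, Elk3, Elk4 and Srf, the 16 largest changes each way (leaving out olfactory, vomeronasal, small RNA and predicted genes), at most 4 called members for each list and direction, genes whose promoter is printed, and markers. Genes with close copies can cross-hybridise: Serpinb9b, Serpinb6b, Lyz2, H2-Q4, Pcdhb9 and Cbr2 are uncertain beside those marked in the text. The other settings are those of the closing section.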

Additional observations from a re-analysis of the deposited data

How the results depend on the processing

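The 3149 higher, 2772 lower and 5480 knockdown-against-knockdown calls stayed within 1.5 times under the replicate block, only the 6 arrays compared, an intensity trend with robust variances, median centring, cyclic loess, both filters on dim genes, averaged probe sets, array weights, the neighbours' median taken off, an adjusted p under 0.01 and each array left out. The exception was the threshold of at least 1.5-fold, which left 462 higher, 428 lower and 924 between the knockdowns. With an array left out they ran from 2616 to 3257 higher, 2328 to 2903 lower and 4770 to 5481 between the knockdowns. The replicate block gave 3246 higher, 3017 lower and 5752 between the knockdowns. Whether the replicate numbers pair the samples was not settled. Deviations of same-numbered control and Sap-1 shRNA arrays from their group means correlated at r = 0.17, -0.06 and 0.00. For Net and Sap-1 shRNA arrays r was 0.36, -0.09 and 0.26, and for control and Net shRNA arrays 0.25, 0.19 and -0.11. Replicate 1 passed 0.1 in every pair of groups and the other replicates did not. In both other groups, 3 of 9 arrays correlated best with their own number. Taking off the neighbours' median gave more lower genes (3480) than higher ones (3291), and Degs1, Iars2 and Sdhc reversed, to 0.03, 0.07 and 0.09. Of 301 called named genes, 280 kept call and direction in all 19 settings that refit the genes, and 21 lost the call in at least 1. Probe brightness limits what dim genes can show.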
